A study of Mus musculus with 12 samples.

Results

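The genes described here encode the acid hydrolases of the lysosome, a set of its membrane proteins, the subunits of the proton pump that acidifies it (the vacuolar ATPase, V-ATPase) and 3 transcription factors of the MiT/TFE family that act on such genes. The set was chosen by symbol: 21 rows whose symbol begins with Atp6v, leaving out Atp6v0d2 and pseudogenes, and 32 named genes, which gives 53 of the 48440 genes in the table. Cathepsins were not part of it. The rule uses no measured value, but the genes were chosen with earlier results of these data known. Of the 53 genes, 48 had enough counts to be tested. The other 5, Atp6v1b1, Atp6v1c2, Atp6v1e2, Atp6v1g3 and Atp6v0a4, had no count in any of the 12 libraries, and a count of 0 allows a level of up to 0.0865 to 0.145 CPM (3 counts) per library. In textbook accounts Atp6v1b1, Atp6v1g3 and Atp6v0a4 are subunit forms of the kidney.

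The libraries were made from mouse bone-marrow-derived macrophages, which are macrophages grown in culture from marrow cells. There were 6 groups of 2 libraries: WT and CKO, each untreated, treated with interferon-γ (IFN-γ, 100 U/mL) for 24 h, or treated with interleukin-4 (IL-4, 20 ng/mL) for 24 h. CKO is not spelled out in the labels. The title of the series is about IRF8, a transcription factor of the myeloid lineage. The labels give no strain, age, allele or Cre driver. They do not say either whether paired libraries stem from separate mice, so every p-value measures only the spread between these libraries, which may be technical.

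Lysosomes receive material from phagocytosis, endocytosis and autophagy and break it down with hydrolases that work at acid pH. The V-ATPase has a cytosolic V1 sector, which splits ATP, and a membrane V0 sector, which carries protons, and several subunits exist in alternative forms that differ between cell types. TFEB, TFE3 and MITF bind E-box sequences, among them the CLEAR element found near the starts of many lysosomal genes, and nutrient signals at the lysosome control whether these factors enter the nucleus.

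The libraries held 21287725 to 32717379 counts. Levels are given in CPM, the usual unit of counts scaled to library size, here on TMM-scaled sizes, and 1 fit across 16292 tested genes gave every fold change with its approximate standard error (SE) and an adjusted p from edgeR's quasi-likelihood test. As a check on the labels, Irf8 stood at 90.9 and 91.2 CPM in the untreated WT libraries and at 293 and 248 CPM in the libraries labelled CKO, so its level goes against a loss of the whole transcript, while counts per gene cannot check a deletion of part of a gene. Lyz2, a lysozyme gene of macrophages, was at 5843 to 11853 CPM in the WT libraries and at 12.6 to 28.0 CPM in those labelled CKO. The 7 macrophage markers, among them Adgre1 and Csf1r, were all detected, with a summed level of 1990 to 3731 CPM. The 11 neutrophil markers summed to 94.1 to 236 CPM in WT and 419 to 967 CPM in CKO libraries. Untreated CKO library 1 stood apart in that 1.52% of its counts were mitochondrial, against 2.12% to 3.25% in the other libraries, and the 2 untreated CKO libraries differed most among pairs of 1 group.

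Levels of different genes were compared per kilobase of merged exon. The libraries were prepared with an exome capture kit, so the efficiency of its probes also enters these levels. In untreated WT libraries the highest level was that of Psap, which encodes the precursor of the saposins that present sphingolipids to hydrolases, at 3842 and 3722 CPM per kb. Cd68 and Lamp1, which encode heavily glycosylated membrane proteins, came next at 640 and 845 and at 720 and 727 CPM per kb, and their libraries overlapped. They were followed by Hexa, the alpha subunit of the hexosaminidase that degrades gangliosides, and Lipa, the acid lipase, at 372 and 354 and at 271 and 236 CPM per kb. The transcription factors were among the lowest, with Tfeb at 3.43 and 3.66 CPM per kb, and Atp6v0e2 and Atp6v1g2 were below 1 CPM per kb. Psap was the highest of the 48 genes in all 6 groups. Ppt1, by contrast, moved from place 26 in untreated WT to place 7 after IFN-γ, and Atp6v0a1 moved from place 19 to place 8 after IL-4.

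**Figure D1:**
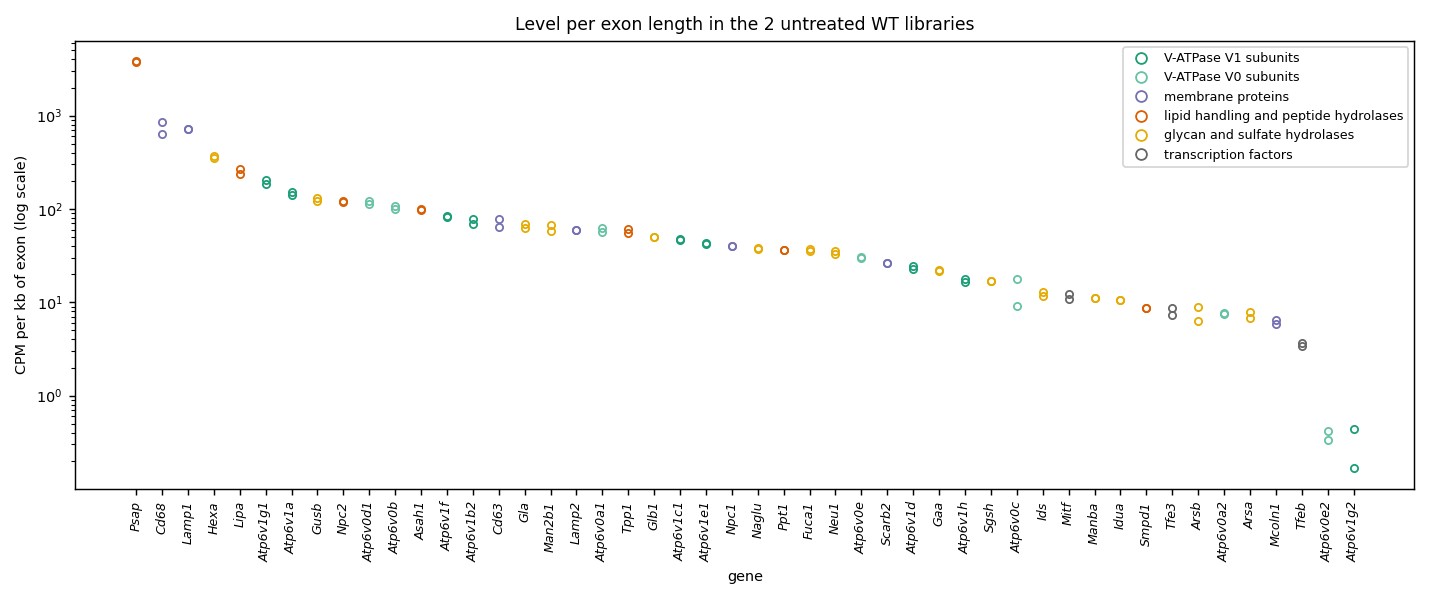
Levels of the 48 tested genes in the 2 untreated WT libraries, in CPM per kilobase of merged exon on a log scale, 1 circle per library, ordered by mean and coloured by role. Psap stands highest and Atp6v0e2 and Atp6v1g2 lowest, below 1 CPM per kb.

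Promoter sequence was read from RefSeq windows of 300 bases on GRCm38.p6, 250 of them before the annotated start, and 46 of the 53 genes had such a window. The E-box CACGTG, searched on both strands, was present in 12 of the 46 genes (26.1%), against 8.09% of all 27025 genes with a window. The longer CLEAR core TCACGTGA, each match of which also holds CACGTG, was present in 5 genes (10.9%, against 1.12% of all genes), and the longer CLEAR palindrome was in none of the 46 (0.37% of all genes). The stretches below show the core or E-box, in capitals, of 5 genes whose values are described further on, written 5′ to 3′ on the strand of the gene. They are an ion channel (chr8:3500443-3500510, plus strand), the catalytic pump subunit (chr16:44139354-44139421, minus strand), a pump subunit of the membrane sector (chr8:105566035-105566098, minus strand), an abundant membrane protein with 4 E-boxes in 1 stretch (chr8:13159090-13159160, plus strand) and a sulfatase (chr11:119355504-119355569, minus strand).
Mcoln1: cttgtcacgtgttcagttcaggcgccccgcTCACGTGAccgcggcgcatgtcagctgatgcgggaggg
Atp6v1a: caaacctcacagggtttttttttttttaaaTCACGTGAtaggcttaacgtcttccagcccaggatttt
Atp6v0d1: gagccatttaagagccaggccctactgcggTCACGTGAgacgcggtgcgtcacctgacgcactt
Lamp1: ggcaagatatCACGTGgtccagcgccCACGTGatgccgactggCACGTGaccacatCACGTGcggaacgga
Sgsh: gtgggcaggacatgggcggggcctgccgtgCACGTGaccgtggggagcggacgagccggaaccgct
The Mcoln1 stretch also holds a CACGTG at −71 from the start, left in lower case. The other 7 genes with CACGTG were Arsa, Atp6v0b, Atp6v0e, Gaa, Gla, Glb1 and Naglu. A match describes these letters only and is no evidence of binding. As the CLEAR element is known from lysosomal genes, a higher share in this set is no finding of these data. The 27025 genes also include genes that were not tested here.

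The first comparison asks what IFN-γ did to these genes. Cells given IFN-γ held less mRNA of most V1 pump subunits and more of Ppt1 and Npc2 than untreated cells, in both genotypes. Fuca1 was called higher in both too, but in CKO that call was lost in 11 of 17 alternative settings. In WT, 8 of the 48 tested genes were higher and 13 lower past an adjusted p of 0.05, which is 43.8% of them, while 24.2% of all tested genes were called (12.4% higher and 11.8% lower). In CKO, 8 were higher and 13 lower, against 26.6% of all tested genes called (14.7% higher and 11.9% lower). The tested genes had a median level of 160 CPM and all tested genes a median of 13.2 CPM, and the part of this difference in the share called was not tested. The median log2 fold change of the 48 genes was −0.14 in WT and −0.17 in CKO, and that of all tested genes was −0.00 and 0.00. As these are bulk samples, fewer cells of a type and less RNA per cell cannot be told apart.

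Among the 9 tested V1 genes, 6 were called lower in WT and none higher, with a median log2 fold change of −0.37. Atp6v1a, the catalytic subunit that splits ATP, was at 930 and 857 CPM in untreated WT libraries and at 471 and 480 CPM after IFN-γ, and in CKO it was at 1082 and 935 and at 612 and 625 CPM. Its libraries with IFN-γ lay below all 4 untreated ones in these groups (log2 fold change −0.91 ± 0.10 SE in WT, adjusted p = 3.92e-05, and −0.71 ± 0.10 in CKO, adjusted p = 0.00029). Atp6v1c1, a subunit of the stalk between the sectors, was at 263 and 271 CPM untreated and at 146 and 169 CPM with IFN-γ in WT. In CKO its values were 249 and 249 CPM untreated and 169 and 176 CPM with IFN-γ. The groups did not overlap in either genotype (−0.76 ± 0.09, adjusted p = 5.52e-05, and −0.53 ± 0.09, adjusted p = 0.00085). Atp6v1h, a regulatory subunit, went from 175 and 160 CPM to 108 and 108 CPM in WT (−0.64 ± 0.09, adjusted p = 0.000198). In CKO it went from 143 and 135 to 104 and 110 CPM (−0.37 ± 0.09, adjusted p = 0.00783), a call that was lost without either CKO IFN-γ library.

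The other V1 calls were smaller. Atp6v1d, a rotor subunit, and Atp6v1g1, a stalk subunit, fell in both genotypes, by 0.37 and 0.36 in WT and by 0.30 and 0.33 in CKO on the log2 scale. All 4 of these calls were lost when 1 library was left out, and the highest adjusted p was 0.184, for Atp6v1d in CKO without CKO IFN-γ library 2. Atp6v1e1, another stalk subunit, fell by 0.43 in WT (adjusted p = 0.00671, and 0.055 without untreated WT library 1) and was at −0.06 ± 0.10 in CKO, which did not pass the test. Atp6v1f, a rotor subunit, fell by 0.29 in CKO (adjusted p = 0.0279), a call lost in 7 of 17 alternative settings. Atp6v1b2, the B subunit of macrophages, was the 1 V1 gene called higher, from 381 and 371 CPM to 507 and 498 CPM in CKO (0.42 ± 0.09, adjusted p = 0.00607). That call was lost without CKO IFN-γ library 1. In WT it was at 410 and 365 CPM untreated and at 474 and 447 CPM with IFN-γ, a difference that did not pass.

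The V0 genes did not move in 1 direction. Atp6v0a1 and Atp6v0a2 encode alternative forms of the large membrane subunit that places the pump in different compartments. Atp6v0a1 (GRCm38 chromosome 11, 101009452 to 101063719) was at 413 and 372 CPM in untreated WT and at 222 and 180 CPM with IFN-γ, and in CKO it was at 227 and 257 and at 124 to 127 CPM. It fell in both genotypes with no overlap (−0.96 ± 0.12, adjusted p = 6.69e-05, and −0.95 ± 0.12, adjusted p = 7.72e-05). Atp6v0a2 was at 51.3 and 50.1 CPM untreated and at 78.1 and 74.8 CPM with IFN-γ in WT. In CKO it was at 42.8 and 44.7 CPM untreated and at 64.0 and 61.2 CPM with IFN-γ, so it rose in both (0.59 ± 0.09, adjusted p = 0.00039, and 0.52 ± 0.09, adjusted p = 0.00102). Atp6v0d1, which couples the sectors, fell in WT from 218 and 205 to 165 and 161 CPM (−0.38 ± 0.09, adjusted p = 0.0101, and 0.0869 without untreated WT library 1). Atp6v0c, the ring subunit that carries the protons, ran from 31.1 to 162 CPM over the 12 libraries and passed no test. A near-identical copy, Atp6v0c-ps1, was counted separately at 8.54 to 18.1 CPM, so the level of Atp6v0c is uncertain.

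**Figure D2:**
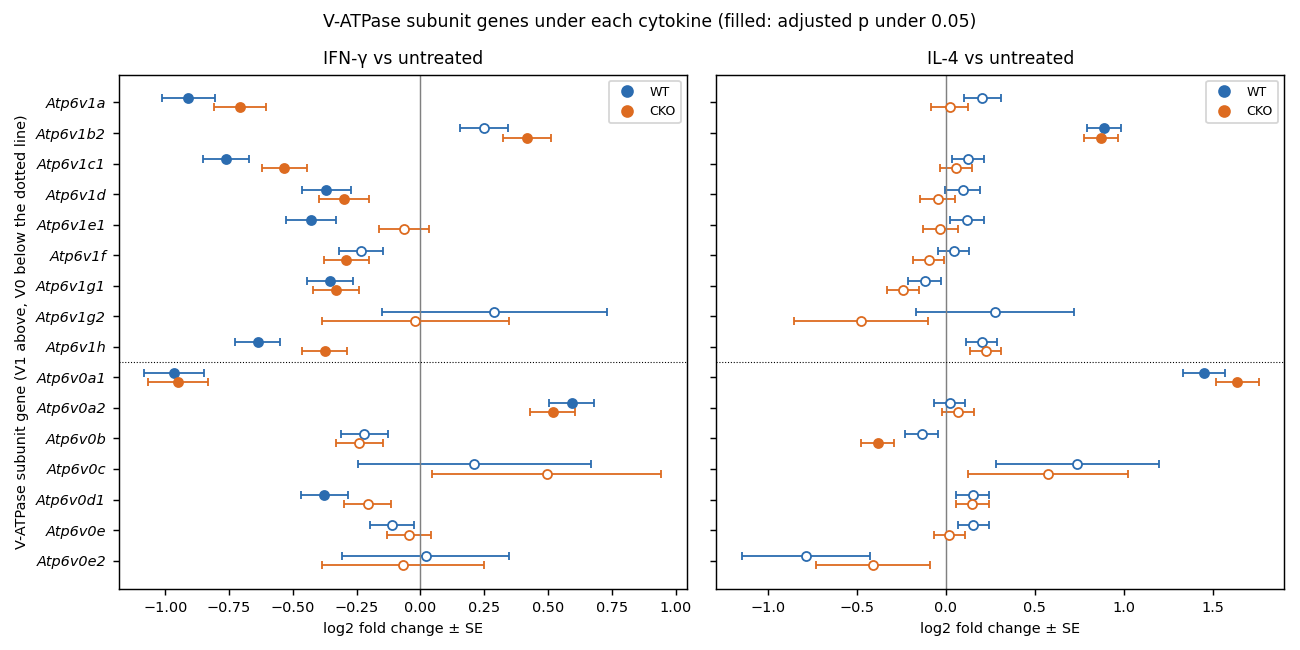
Log2 fold changes of the 16 tested V-ATPase genes under IFN-γ (left) and IL-4 (right) against untreated cells, with bars of 1 SE, V1 genes above and V0 genes below the dotted line, WT in blue and CKO in orange, filled where the adjusted p was under 0.05. Most V1 genes lie left of 0 under IFN-γ, and Atp6v0a1 lies at −0.96 and −0.95 under IFN-γ and at 1.45 and 1.64 under IL-4.

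Of the 7 genes for lipid handling and peptide cleavage, 4 rose and 1 fell in WT, and 2 rose and 1 fell in CKO. Ppt1, the thioesterase that removes fatty acids from proteins (chromosome 4, 122836242 to 122859175), had the largest change of the set. It was at 133 and 134 CPM in untreated WT and at 537 and 598 CPM with IFN-γ. In CKO its values were 107 and 110 CPM untreated and 399 and 394 CPM with IFN-γ. The groups were far apart in both genotypes, with 4.25-fold and 3.66-fold increases (log2 fold change 2.09 ± 0.09, adjusted p = 8.81e-09, and 1.87 ± 0.09, adjusted p = 1.8e-08). Npc2, which takes cholesterol from the lumen, was at 665 and 649 CPM untreated and at 1181 and 1253 CPM with IFN-γ in WT. In CKO it was at 799 and 677 and at 1466 and 1415 CPM, so it rose in both genotypes with no overlap (0.89 ± 0.12, adjusted p = 0.00015, and 0.97 ± 0.12, adjusted p = 7.9e-05).

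Npc1, the membrane protein that receives cholesterol from NPC2, moved the other way. It was at 456 and 452 CPM in untreated WT and at 348 and 337 CPM with IFN-γ, and in CKO at 498 and 490 and at 361 and 346 CPM. It fell in both genotypes with no overlap (−0.41 ± 0.09, adjusted p = 0.00599, and −0.48 ± 0.09, adjusted p = 0.00186). Psap rose in WT from 10543 and 10213 to 16306 and 16000 CPM (0.64 ± 0.15, adjusted p = 0.00782, and 0.0629 without untreated WT library 2). In CKO it was at 11586 and 9167 CPM untreated and at 13757 and 12878 CPM with IFN-γ, a difference that did not pass. Asah1, the acid ceramidase, was higher in WT (0.47 ± 0.14, adjusted p = 0.0248, and 0.185 without WT IFN-γ library 2). Tpp1, a peptidase, fell in WT by 0.38 (adjusted p = 0.0243, and 0.194 without untreated WT library 1). Lipa fell in CKO from 2544 and 2089 to 1674 and 1658 CPM (−0.48 ± 0.12, adjusted p = 0.0139, and 0.101 without CKO IFN-γ library 2).

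Among the 15 glycan and sulfate hydrolases, 2 rose and 3 fell in each genotype. Fuca1, the lysosomal fucosidase, rose in WT from 117 and 121 to 198 and 204 CPM (0.76 ± 0.09, adjusted p = 6.02e-05). In CKO it was at 129 and 130 CPM untreated and at 159 and 153 CPM with IFN-γ (0.27 ± 0.09, adjusted p = 0.0458), and that call was lost in 11 of 17 alternative settings. Sgsh, the sulfatase of heparan sulfate, fell from 74.3 and 73.8 to 37.3 and 30.8 CPM in WT and from 103 and 117 to 48.5 and 46.0 CPM in CKO. The drop was far outside the spread of the libraries in both (−1.12 ± 0.14, adjusted p = 6.76e-05, and −1.22 ± 0.13, adjusted p = 3.12e-05). Arsb, the sulfatase of dermatan sulfate, fell from 53.8 and 38.5 to 30.3 and 18.9 CPM in WT (−0.91 ± 0.21, adjusted p = 0.00856, and 0.0914 without untreated WT library 1). In CKO it fell from 32.1 and 39.2 to 15.9 and 14.6 CPM (−1.22 ± 0.22, adjusted p = 0.00139). In the annotation 39.9% of the exon bases of Arsb and 21.6% of those of Sgsh also lie in other genes, and the strand setting of the counting is not given, so reads of those genes cannot be told apart. Manba, a mannosidase, rose by 0.26 in WT and 0.25 in CKO, calls lost in 9 and 10 of 17 alternative settings. Gusb, the glucuronidase, fell by 0.36 in WT (lost in 10 settings), and Neu1, a sialidase, by 0.31 in CKO (lost in 4).

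Among the 7 membrane protein genes, Npc1 was the 1 that passed the test in WT. In CKO, Lamp2, a membrane protein needed for fusion with autophagosomes, rose by 0.44 (adjusted p = 0.0322), and Scarb2, the carrier of glucocerebrosidase, fell by 0.41 (adjusted p = 0.0323). These calls were lost in 4 and 6 of 17 alternative settings. Mcoln1, the calcium channel of the lysosome, was at 43.9 and 49.2 CPM in untreated WT and at 44.1 and 41.3 CPM with IFN-γ, and in CKO at 62.2 and 62.3 and at 52.8 and 52.1 CPM. Neither difference passed the test. Tfeb was at 19.4 and 20.7 CPM untreated and at 29.2 and 26.8 CPM with IFN-γ in WT. In CKO its values were 24.7 and 23.5 CPM untreated and 33.7 and 32.6 CPM with IFN-γ. It rose in both genotypes with no overlap (0.48 ± 0.15, adjusted p = 0.033, and 0.46 ± 0.14, adjusted p = 0.0344), but these calls were lost in 8 and 6 of 17 alternative settings. Mitf and Tfe3 passed no test under IFN-γ.

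The counts of calls depended on single libraries. A group left with 1 library has no spread of its own in the fit, and the part of this in the counts was not tested. In WT they were 5 higher and 7 lower without untreated library 1, 4 higher without untreated library 2 and 5 higher without IFN-γ library 2. In CKO, leaving out IFN-γ library 1 left 3 higher and 6 lower, and leaving out IFN-γ library 2 left 4 and 6. The CKO count of higher genes was also 5 without untreated CKO library 2, 4 without WT IL-4 library 1 and 5 without WT IL-4 library 2. The WT IL-4 libraries are outside that comparison, and the cause of these moves was not tested. Calls kept in all 17 alternative settings were those of Atp6v0a1, Atp6v0a2, Atp6v1a, Atp6v1c1, Npc1, Npc2, Ppt1 and Sgsh in both genotypes, of Atp6v1h and Fuca1 in WT, and of Arsb in CKO. Beside these changes, the 4 monocyte markers summed to 34.9 to 38.6 CPM in untreated WT and 120 to 163 CPM with IFN-γ, and to 87.5 to 101 and 220 to 234 CPM in CKO. Of the 4, 3 were called higher and 1 lower in each genotype. The 11 neutrophil markers, all detected in each group, summed to 227 to 236 CPM untreated and 94.1 to 107 CPM with IFN-γ in WT, and to 712 to 967 and 484 to 485 CPM in CKO. They did not move in 1 direction: of the 10 tested, 1 was called higher and 1 lower in WT (log2 fold changes −2.23 to 1.53) and 4 higher and 1 lower in CKO (−2.50 to 0.95). The 6 dendritic cell markers, all detected, summed to 1.88 to 2.55 CPM untreated and 50.8 to 60.2 CPM with IFN-γ in WT, and to 1.90 to 3.11 and 8.36 to 10.3 CPM in CKO, and of the 5 tested, 3 were called higher in WT and 2 in CKO. The 5 osteoclast markers, with Calcr at 0 throughout, summed to 7.23 to 11 CPM untreated and 102 to 110 CPM with IFN-γ in WT, and to 9.89 to 11.1 and 22.3 to 23.4 CPM in CKO. Of the 3 tested, 1 was called higher and 1 lower in WT (log2 fold changes −1.71 to 7.92), and 1 higher in CKO. The part of other cells in the result was not tested.

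**Figure D3:**
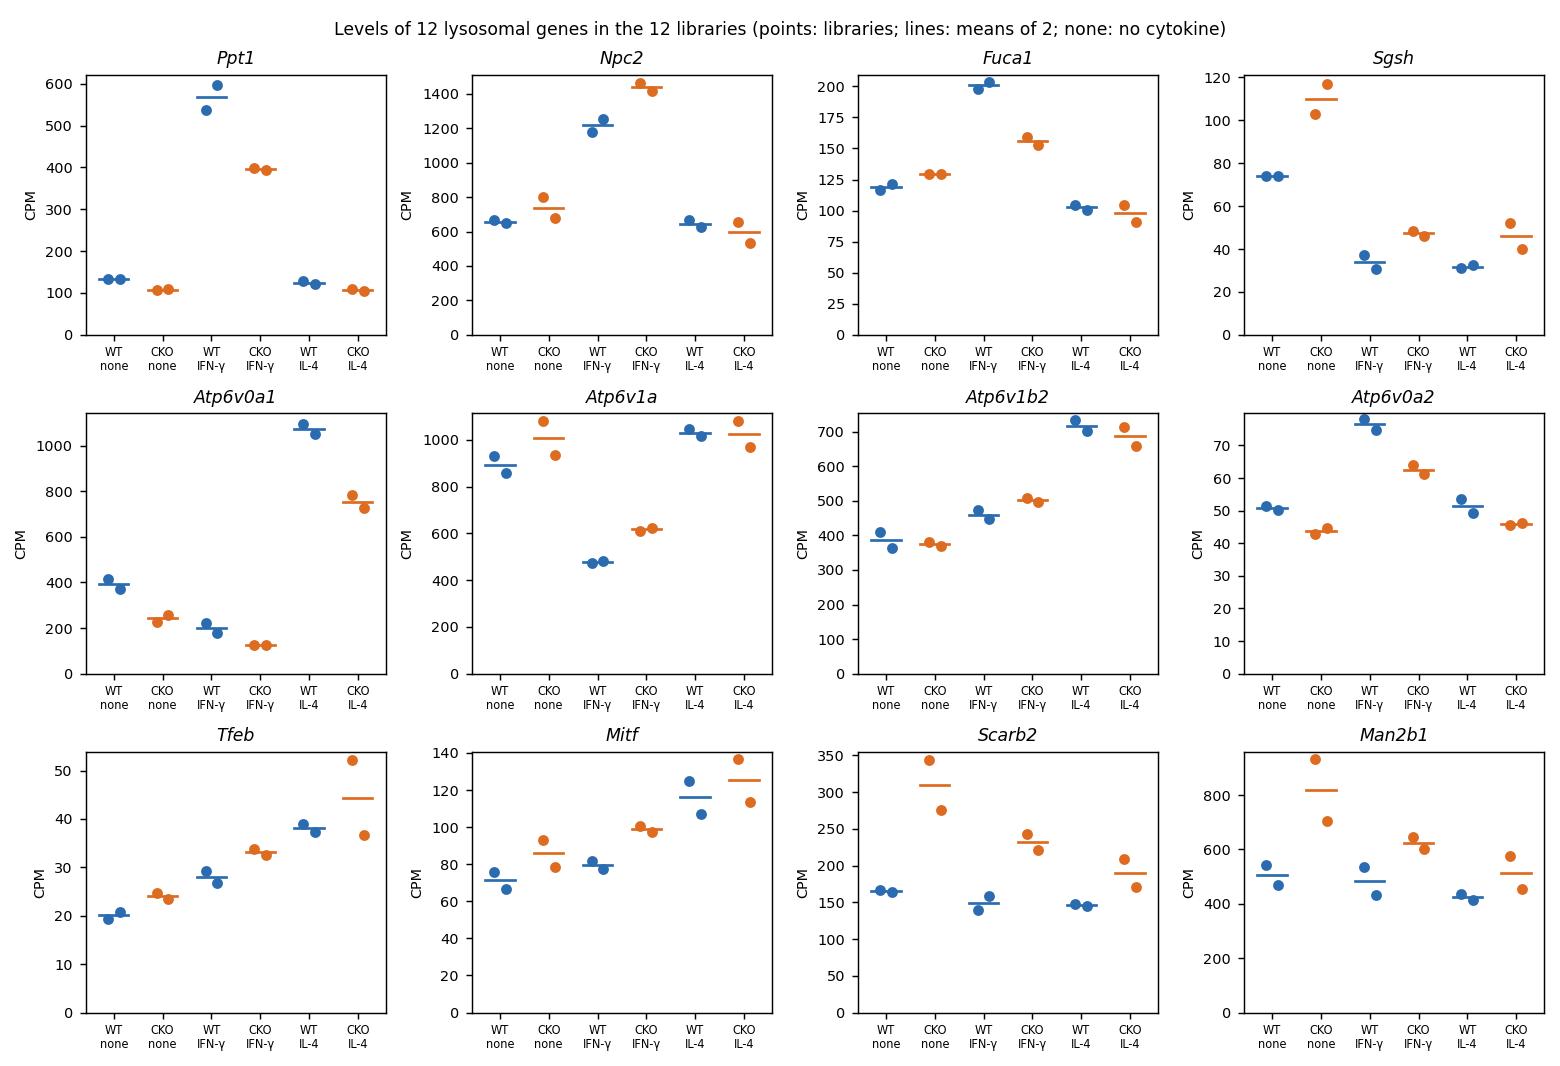
Levels in CPM of 12 genes in the 12 libraries, 1 point per library, WT in blue and CKO in orange, with lines at the means of 2. Ppt1 and Npc2 stand high in the 4 IFN-γ libraries, Atp6v0a1 stands high in the 4 IL-4 libraries, and Sgsh is lower with either cytokine than without.

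The second comparison asks what IL-4 did. In both genotypes the pump genes Atp6v0a1 and Atp6v1b2 and the transcription factor genes Tfeb and Mitf rose, and the hydrolase genes Sgsh and Neu1 fell. In WT, 5 of 48 genes were higher and 2 lower (14.6%), near the 12.2% of all tested genes called (6.64% higher and 5.59% lower). In CKO, 4 were higher and 9 lower (27.1%), against 22.5% of all tested genes (11.2% higher and 11.3% lower). The median log2 fold changes of the 48 genes were 0.04 and −0.05, and those of all tested genes −0.00 and 0.00.

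Atp6v0a1 had the largest rise. It went from 413 and 372 to 1093 and 1049 CPM in WT and from 227 and 257 to 782 and 725 CPM in CKO. The IL-4 libraries lay far above the untreated ones, 2.73-fold and 3.11-fold (log2 fold change 1.45 ± 0.12, adjusted p = 8.85e-06, and 1.64 ± 0.12, adjusted p = 2.69e-06). The same untreated libraries served for IFN-γ, where the gene fell. Atp6v1b2, the other pump gene called higher, was at 410 and 365 CPM untreated and at 735 and 701 CPM with IL-4 in WT. In CKO it was at 381 and 371 and at 715 and 659 CPM, with no overlap in either genotype (0.89 ± 0.10, adjusted p = 7.07e-05, and 0.87 ± 0.10, adjusted p = 6.58e-05). None of the other 8 tested V1 genes passed the test under IL-4 in either genotype. Of the 9 tested V1 genes, 8 had a positive log2 fold change in WT (median 0.12) and 4 in CKO (median −0.03). Among V0 genes Atp6v0b, a second proton-carrying ring subunit, fell in CKO from 250 and 215 to 182 and 175 CPM (−0.38 ± 0.09, adjusted p = 0.0127, and 0.0905 without CKO IL-4 library 2).

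Tfeb and Mitf rose with IL-4 in both genotypes. Tfeb (chromosome 17, 47737030 to 47792419) was at 19.4 and 20.7 CPM untreated and at 38.9 and 37.4 CPM with IL-4 in WT, and in CKO at 24.7 and 23.5 and at 52.2 and 36.7 CPM. The groups did not overlap, although the CKO IL-4 libraries lay well apart from each other (0.92 ± 0.15, adjusted p = 0.00137, and 0.88 ± 0.14, adjusted p = 0.00126). Mitf was at 75.7 and 66.8 CPM untreated and at 125 and 107 CPM with IL-4 in WT, and in CKO at 93.1 and 78.4 and at 137 and 113 CPM. It rose by 0.70 ± 0.13 in WT (adjusted p = 0.00335) and by 0.55 ± 0.13 in CKO (adjusted p = 0.01), and the calls were lost without WT IL-4 library 1 (adjusted p = 0.0635) and without CKO IL-4 library 1 (adjusted p = 0.0843). Tfe3 was at 67.5 and 79.8 CPM in untreated WT and at 71.2 and 71.6 CPM with IL-4, and in CKO at 74.6 and 89.5 and at 85.7 and 75.1 CPM. Its libraries overlapped, and it passed no test in any comparison. Mcoln1 was at 48 and 46.7 CPM with IL-4 in WT and at 62.1 and 49.999 CPM in CKO, and did not pass.

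The hydrolases that changed with IL-4 mostly fell. Sgsh fell as it did with IFN-γ, to 31.2 and 32.4 CPM in WT and to 51.9 and 40.0 CPM in CKO (−1.22 ± 0.14, adjusted p = 0.000101, and −1.26 ± 0.13, adjusted p = 5.54e-05). Neu1 was at 123 and 133 CPM untreated and at 95.1 and 105 CPM with IL-4 in WT (−0.35 ± 0.09, adjusted p = 0.0302), a call lost in 6 of 17 alternative settings. In CKO it went from 144 and 131 to 104 and 100 CPM (−0.43 ± 0.09, adjusted p = 0.00666, and 0.0531 without CKO IL-4 library 2). Psap rose in WT to 15237 and 14799 CPM (0.53 ± 0.15, adjusted p = 0.0372), a call lost in 8 of 17 settings. Ppt1, at 128 and 122 CPM in WT and 110 and 105 CPM in CKO, did not pass.

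In CKO 6 of the 15 glycan and sulfate hydrolases fell. Man2b1, a mannosidase, went from 931 and 704 to 576 and 454 CPM (−0.67 ± 0.16, adjusted p = 0.0116, and 0.121 without CKO IL-4 library 2). Fuca1 fell by 0.41 (adjusted p = 0.00837, and 0.0812 without CKO IL-4 library 2), and Ids, a sulfatase, by 0.37 (adjusted p = 0.0272, and 0.207 without that library). Hexa fell from 1011 and 806 to 774 and 604 CPM (−0.40 ± 0.13, adjusted p = 0.0493), and its call was lost in 12 of 17 settings. Of the membrane proteins, Scarb2 fell from 344 and 275 to 209 and 170 CPM (−0.71 ± 0.13, adjusted p = 0.00259) and kept its call in all 17 settings, while Lamp2 fell by 0.42 (adjusted p = 0.0476) and lost it in 8. In WT none of the 7 membrane protein genes passed the test. Npc1, at 456 and 452 CPM untreated and 556 and 554 CPM with IL-4, was higher there with no overlap.

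In each pair of CKO libraries, library 1 held more Man2b1, Hexa, Lipa, Psap and Scarb2 than library 2. So did library 1 of each WT pair, except for Scarb2 with IFN-γ (139 and 158 CPM). Without CKO IL-4 library 2 the count of lower genes in CKO was 2, and without untreated CKO library 1 it was 4. In WT the count of higher genes was 3 without untreated library 2 or IL-4 library 1. The count of lower genes in WT was 1 without any 1 of the untreated WT, WT IL-4 or CKO IFN-γ libraries. Calls kept in all 17 settings were those of Atp6v0a1, Atp6v1b2, Sgsh and Tfeb in both genotypes and of Scarb2 in CKO. The 5 osteoclast markers, of which Calcr was at 0 in these groups and Oscar at 0 with IL-4, summed to 7.23 to 11 CPM in untreated WT and 29.8 to 34.1 CPM with IL-4, and to 9.89 to 11.1 and 44.2 to 54.3 CPM in CKO. All 3 tested were called higher in each genotype. Dendritic cell markers summed to 1.88 to 2.55 CPM untreated and 7.26 to 8.25 CPM with IL-4 in WT, and to 1.90 to 3.11 and 10.02 to 11 CPM in CKO, with 2 of 5 tested called higher in each genotype. Neutrophil markers summed to 227 to 236 and 207 to 215 CPM in WT and to 712 to 967 and 419 to 485 CPM in CKO, with 0 of 10 tested called in WT and 2 lower in CKO. Monocyte markers summed to 34.9 to 38.6 and 30.9 to 32.6 CPM in WT and to 87.5 to 101 and 50.2 to 60.3 CPM in CKO, with 1 of 4 called lower in each genotype. The part of such cells in the result was not tested.

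The difference between the genotypes in each response was tested directly. None of the 48 genes passed for IFN-γ, where 2.72% of all tested genes did (2.07% higher and 0.651% lower), and none for IL-4, where 0.0368% did (0.0246% higher and 0.0123% lower). At an unadjusted p under 0.05 there were 5 and 1 genes, and DESeq2 called 1 lower for IFN-γ and 0 for IL-4. The shares of all tested genes at the unadjusted threshold and by DESeq2 are not given here, so these counts are not read as a result. The gene nearest to the threshold was Fuca1, whose rise with IFN-γ was smaller in CKO (difference −0.49 ± 0.13 on the log2 scale, adjusted p = 0.074). The differences ranged from −0.49 to 0.69 for IFN-γ and from −0.75 to 0.38 for IL-4, and a p above the threshold does not show that the responses were alike. 1 gene was called higher for IFN-γ without untreated CKO library 2, and 1 was called lower without either CKO IL-4 library.

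The third comparison sets libraries labelled CKO against WT within each treatment. Untreated CKO libraries held less Atp6v0a1 and more Scarb2, Man2b1 and Sgsh. Among the 48 genes 6 were higher and 3 lower (18.8%), close to the 18% of all tested genes called (8.6% higher and 9.37% lower). After IFN-γ 7 were higher and 6 lower (27.1%), against 18.4% of all tested genes (10.4% higher and 8.01% lower). After IL-4 none was higher and 1 lower (2.08%), against 2.96% (1.41% higher and 1.55% lower).

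Atp6v0a1 was lower in CKO under each treatment, and the libraries did not overlap in any of the 3. It was at 413 and 372 CPM in WT and 227 and 257 CPM in CKO untreated (−0.70 ± 0.12, adjusted p = 0.00267). With IFN-γ the values were 222 and 180 against 127 and 124 CPM (−0.68 ± 0.12, adjusted p = 0.00193). With IL-4 they were 1093 and 1049 against 782 and 725 CPM (−0.51 ± 0.12, adjusted p = 0.0379), a call lost in 9 of 17 settings. Scarb2 (chromosome 5, 92441314 to 92506833) was at 166 and 165 CPM in untreated WT and at 344 and 275 CPM in CKO, 1.87-fold higher with no overlap (0.90 ± 0.13, adjusted p = 0.00111). With IFN-γ it was at 139 and 158 against 243 and 221 CPM (0.64 ± 0.13, adjusted p = 0.00523, and 0.079 without CKO IFN-γ library 1). With IL-4 it was at 148 and 144 against 209 and 170 CPM and did not pass. Atp6v0c passed no test, but its libraries did not overlap in any of the 3 treatments. It stood at 31.1 and 60.7 CPM in WT and 72.3 and 137 CPM in CKO untreated. With IFN-γ the values were 31.5 and 74.6 against 152 and 143 CPM, and with IL-4 73.3 and 80.0 against 162 and 150 CPM. Its log2 fold changes of 1.19, 1.47 and 1.03 were the highest of the 48 genes. As said above, its level is uncertain.

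Among the hydrolases of untreated cells, Man2b1 was at 544 and 471 CPM in WT and at 931 and 704 CPM in CKO (0.69 ± 0.16, adjusted p = 0.0141, and 0.114 without untreated CKO library 1). Sgsh was at 74.3 and 73.8 against 103 and 117 CPM (0.57 ± 0.13, adjusted p = 0.0146, and 0.088 without untreated WT library 2). Neither pair of groups overlapped. Naglu, another enzyme of heparan sulfate breakdown, was at 98.4 and 102 against 131 and 140 CPM (0.44 ± 0.13, adjusted p = 0.0341). Lipa was at 1838 and 1599 against 2544 and 2089 CPM (0.43 ± 0.12, adjusted p = 0.0357). Mcoln1 was at 43.9 and 49.2 against 62.2 and 62.3 CPM (0.42 ± 0.11, adjusted p = 0.027). The calls of Naglu, Lipa and Mcoln1 were lost in 7, 7 and 3 of 17 settings. Gusb, at 552 and 592 against 383 and 499 CPM, and Ppt1, at 133 and 134 against 107 and 110 CPM, were lower (−0.37 ± 0.12, adjusted p = 0.0486, and −0.30 ± 0.09, adjusted p = 0.0358), and their calls were lost in 10 and 8 settings.

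With IFN-γ, Ppt1 was lower in CKO, at 399 and 394 against 537 and 598 CPM (−0.52 ± 0.09, adjusted p = 0.00167), and kept its call in all 17 settings. Fuca1 was at 159 and 153 against 198 and 204 CPM (−0.37 ± 0.09, adjusted p = 0.0158), and Gaa, the acid alpha-glucosidase, at 91.5 and 85.4 against 135 and 114 CPM (−0.49 ± 0.13, adjusted p = 0.0209). Both calls were lost without CKO IFN-γ library 2 (adjusted p = 0.138 and 0.151). Arsb (−0.69 ± 0.22, adjusted p = 0.0497) and Atp6v0a2 (−0.29 ± 0.09, adjusted p = 0.0436) were lower as well, each losing its call in 9 settings. Cd68, at 608 and 821 CPM in WT and 1147 and 1138 CPM in CKO, was higher (0.68 ± 0.20, adjusted p = 0.0363, and 0.192 without WT IFN-γ library 1). Lamp2, at 596 and 746 against 997 and 960 CPM, was higher too (0.54 ± 0.14, adjusted p = 0.0169, and 0.139 without CKO IFN-γ library 1). Sgsh, Atp6v1e1, Atp6v1a and Ids were higher by 0.47, 0.44, 0.38 and 0.34 on the log2 scale, with adjusted p-values from 0.00914 to 0.0413, and all 4 calls were lost without CKO IFN-γ library 1 (adjusted p up to 0.35). Tfeb, Tfe3 and Mitf passed no genotype comparison.

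Leaving out a library moved these counts. For untreated cells the count of higher genes was 2 without untreated WT library 1, untreated WT library 2 or untreated CKO library 1, and 10 without untreated CKO library 2. The count of lower genes was 1 without untreated WT library 1 or 2, untreated CKO library 1, or any 1 of the WT IL-4 and CKO IFN-γ libraries. With IFN-γ it was 2 higher and 3 lower without WT IFN-γ library 1, 0 and 2 without CKO IFN-γ library 1, 1 and 2 without CKO IFN-γ library 2, and 3 higher without WT IL-4 library 1. With IL-4 the single lower call was lost without any 1 of the untreated WT, WT IL-4, CKO IFN-γ or CKO IL-4 libraries. The count of higher genes with IL-4 was 1 without any 1 of the WT IFN-γ or untreated CKO libraries and 2 without CKO IL-4 library 2. All 10 tested neutrophil markers were called higher in untreated CKO libraries, 9 with IFN-γ and 8 with IL-4, with all 11 detected and the summed levels given above. Of the 4 monocyte markers, 4 were called higher untreated, 3 with IFN-γ and 2 with IL-4. Of the 5 tested dendritic cell markers, 1 was called lower untreated, 3 with IFN-γ and 0 with IL-4. Of the 3 tested osteoclast markers, 1 was called higher untreated, 2 higher and 1 lower with IFN-γ, and 1 higher with IL-4. Of the 7 macrophage markers, 3 were called higher and 1 lower untreated, 4 and 1 with IFN-γ, and 0 and 2 with IL-4. The part of such cells in the genotype differences was not tested.

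**Figure D4:**
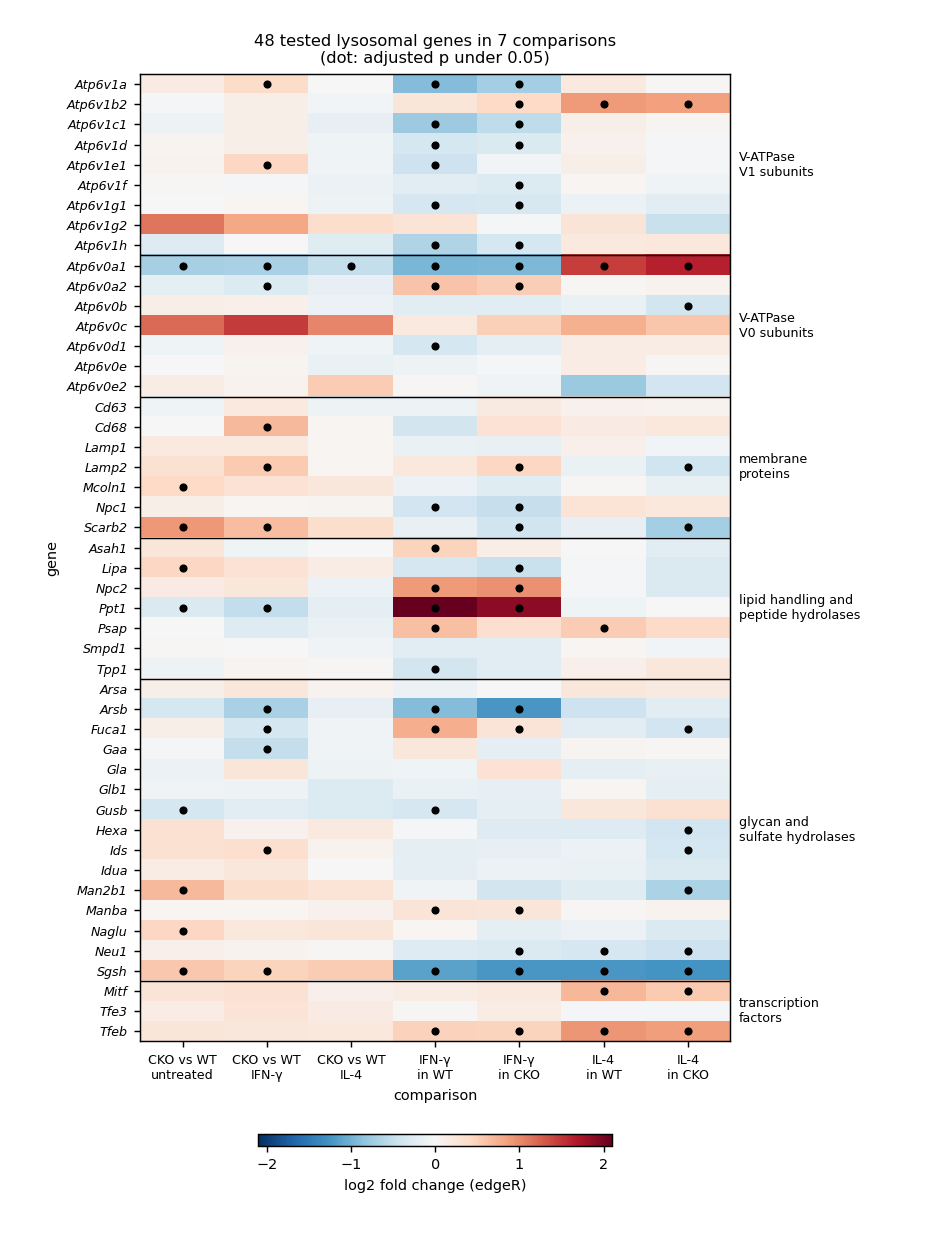
Log2 fold changes of the 48 tested genes (rows, by role) in the 7 comparisons of 2 groups (columns), red for higher and blue for lower, with a dot where the adjusted p was under 0.05. The V1 block is mostly blue under IFN-γ, Ppt1 holds the darkest red cells there, and Sgsh is blue under both cytokines in both genotypes.

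The 12 genes with CACGTG in the promoter window and the 29 tested genes with a window but without it were set side by side as a description. The shares of all tested genes called were 24.2% and 26.6% for IFN-γ in WT and CKO and 12.2% and 22.5% for IL-4. Between genotypes they were 18% untreated, 18.4% with IFN-γ and 2.96% with IL-4. Under IFN-γ, 0 of the 12 were higher and 3 lower in WT and 0 and 2 in CKO, while of the 29 genes 6 were higher and 6 lower in WT and 6 and 7 in CKO. Under IL-4, 0 of the 12 were higher and 1 lower in WT and 0 and 2 in CKO, against 4 and 1 and 3 and 7 of the 29. In untreated cells of the libraries labelled CKO, 3 of the 12 were higher than in WT and 0 lower, against 3 and 3 of the 29. The 3 were Mcoln1, Naglu and Sgsh, whose calls were lost in 3, 7 and 2 of 17 settings. The median log2 fold changes of the 12 and of the 29 were both 0.12. With IFN-γ, 2 of the 12 were higher in CKO than in WT and 1 lower, against 5 and 4 of the 29, and with IL-4 0 and 0, against 0 and 1. Lamp1, whose stretch with 4 E-boxes is printed above, passed no test and ran from 1654 to 2348 CPM over the 12 libraries.

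Other genes of the lysosome were counted in 5 lists, against the shares of all tested genes called given above (24.2% for IFN-γ in WT and 26.6% in CKO, 12.2% for IL-4 in WT and 22.5% in CKO). Of 30 tested further hydrolases, 12 rose and 6 fell with IFN-γ in WT and 13 and 5 in CKO (60% called in each), among them Hgsnat, an acetyltransferase of heparan sulfate breakdown (1.51 ± 0.10 in WT, adjusted p = 4.01e-07). With IL-4, 7 rose and 2 fell in WT and 5 and 3 in CKO (30% and 26.7%). Of 30 further membrane and transport genes, 4 rose and 8 fell with IFN-γ in WT and 3 and 8 in CKO (40% and 36.7%). Clcn7, the chloride exchanger of the lysosome, rose by 1.22 ± 0.10 and 1.48 ± 0.10 on the log2 scale (adjusted p = 1.72e-06 and 2.87e-07).

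Of 14 tested V-ATPase partners, 1 rose and 5 fell with IFN-γ in WT and 1 and 3 in CKO (42.9% and 28.6%). This list also holds Tcirg1 and Atp6v0d2, which are pump subunit genes outside the set. The gene that rose in CKO was Tcirg1 (0.52 ± 0.11, adjusted p = 0.00356). Atp6v0d2, the alternative form of Atp6v0d1, was at 55.9 ± 10.1 CPM (SD, n = 2) untreated and 672 ± 68.9 CPM with IL-4 in WT. It rose with IL-4 in both genotypes (3.59 ± 0.29 in WT, adjusted p = 1.94e-05, and 4.80 ± 0.31 in CKO, adjusted p = 2.98e-06). In CKO it was lower than in WT untreated (−1.44 ± 0.27, adjusted p = 0.00708) and with IFN-γ (−2.27 ± 0.30, adjusted p = 0.000534), and with IL-4 the difference did not pass. Of 24 genes that sort hydrolases to the lysosome, 0 rose and 7 fell with IFN-γ in WT and 2 and 3 in CKO (29.2% and 20.8%, near the shares of all tested genes). Sort1, a sorting receptor, fell by 1.61 in WT and by 1.34 in CKO (adjusted p = 2.98e-05 and 0.000117). Of 25 genes of nutrient sensing and TFEB control, 1 rose and 7 fell with IFN-γ in each genotype (32%), and with IL-4 1 rose and 3 fell in WT (16%) and 1 rose and 9 fell in CKO (40%). Rragd, a GTPase of that pathway, fell with IFN-γ by 1.41 in WT and by 2.05 in CKO (adjusted p = 0.000102 and 5.54e-06). Tfec, the remaining MiT/TFE gene, rose with IL-4 by 1.30 and 1.26 on the log2 scale (adjusted p = 4.05e-05 and 3.94e-05).

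Between genotypes in untreated cells, 9 of the 30 further hydrolases were higher in CKO and 2 lower, 5 and 3 of the membrane and transport genes, 1 and 2 of the V-ATPase partners, 2 and 5 of the sorting genes and 3 and 2 of the nutrient sensing genes. These are 36.7%, 26.7%, 21.4%, 29.2% and 20% of the lists, against 18% of all tested genes (8.6% higher and 9.37% lower). Clcn7 was higher in CKO under each treatment, by 0.84 ± 0.10, 1.10 ± 0.10 and 0.70 ± 0.10 on the log2 scale (untreated, IFN-γ and IL-4, adjusted p = 0.000258, 1.78e-05 and 0.00193). Sorl1, a sorting receptor related to Sort1, was at 42.9 ± 5.39 CPM in untreated WT and 153 ± 28.4 CPM in CKO (SD, n = 2), a log2 fold change of 1.84 ± 0.15 (adjusted p = 2.48e-05).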

How the data were processed

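RNA from mouse bone-marrow-derived macrophages was sequenced in 12 libraries made with an exome capture kit, per the labels. The authors deposited raw counts per gene. The submitters' processing notes list HTSeq 0.6.1, Picard 1.97, TopHat2 2.0.13 and CASAVA 1.8.2, and the builds mm10 and GRCh38 without roles. Annotation release and strand setting: not given in the sources used here. Of 48440 genes, 22932 had no count and 16292 passed edgeR's filterByExpr. Under R 4.3.3, edgeR 4.0.16 fitted 6 group means to the 12 libraries with TMM scaling, leaving 6 residual degrees of freedom. Its quasi-likelihood test was adjusted over all tested genes by Benjamini-Hochberg at 0.05 within each of 9 comparisons. The SE is approximate, the size of the log2 fold change divided by the root of the F statistic. Genes and lists were chosen with earlier results of these data known. Members past the test with the largest changes, and Tfeb, Tfe3, Mitf and Mcoln1, are given per library, with up to 3 genes per further list. Positions came from GENCODE release M21 (GRCm38), where 53 of 53 identifiers matched without their version and 41 with it, and promoters from RefSeq. The alternatives were DESeq2 1.42.0, its size factors within edgeR, no filter, a mean CPM of at least 5, a block on library number and leaving out each library, 17 in all. Where a single library is named beside a lost call, leaving it out gave the highest adjusted p, and other settings may have lost the call too. The scripts were tested on simulated data. Intervals on counts of 0 cover counting error only.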

Additional observations from a re-analysis of the deposited data

Results flagged for a closer look

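None of the 48 tested genes of the set met a criterion for a closer look, and groups of 2 libraries cannot be tested for outlying samples. Of the further lysosomal genes, 7 had an IFN-γ response that differed between the genotypes by edgeR's test of the difference itself. The rise of Naaa, an amidase, was smaller in CKO (difference −2.20 on the log2 scale, adjusted p = 0.00215), from 9.38 ± 1.01 to 81.1 ± 4.12 CPM in WT and from 18.2 ± 3.21 to 34.1 ± 5.79 CPM in CKO (SD, n = 2). The rise of Hgsnat was smaller in CKO (−0.80, adjusted p = 0.0112). The rise of Plbd1 was smaller in CKO (−2.02, adjusted p = 0.0275), at levels of 0.998 to 11.3 CPM over the group means concerned. The rise of Slc15a3, a peptide and histidine transporter, was larger in CKO (1.01, adjusted p = 0.00779). Mcoln2, a relative of Mcoln1, went from 79.2 ± 0.498 to 41.4 ± 1.8 CPM in WT and from 52.4 ± 1.40 to 50.6 ± 4.62 CPM in CKO (difference 0.89, adjusted p = 0.01). The rise of Map4k3, a kinase of nutrient sensing, was larger in CKO (0.61, adjusted p = 0.0418). Vma21, an assembly factor of the V-ATPase, went from 74.8 ± 2.06 to 46.8 ± 4.64 CPM in WT and from 47.1 ± 3.48 to 48.8 ± 0.193 CPM in CKO (difference 0.73, adjusted p = 0.0266). The call of Naaa was kept in all 17 alternatives (highest adjusted p = 0.0167). Those of Slc15a3 and Mcoln2 were each lost in 1, without CKO IFN-γ library 1 (adjusted p = 0.0605) and without CKO IFN-γ library 2 (adjusted p = 0.0669). That of Hgsnat was lost in 2 (up to 0.0891, without CKO IFN-γ library 2). Those of Vma21 and Map4k3 were lost in 7 and 10 of 17. That of Plbd1 was lost in 7 of the 16 alternatives in which it had an adjusted p. The highest adjusted p came without CKO IFN-γ library 1 for Vma21, untreated WT library 1 for Plbd1 and CKO IFN-γ library 2 for Map4k3.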

How the results depend on the processing

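Over the 7 comparisons of 2 groups, 32 of the 85 calls of genes of the set were kept in all 17 alternatives. DESeq2 called 1 higher for CKO against WT with IL-4 and 1 lower for the IFN-γ response difference. Without a filter on low counts, 10 were higher in untreated CKO against WT, 3 in CKO against WT with IL-4, 7 for IL-4 in CKO and 1 for the IFN-γ response difference. With a mean CPM of at least 5, 0 were lower in CKO against WT with IL-4. Leaving out a library in turn gave 2 to 10 higher and 1 to 3 lower genes for CKO against WT untreated, 0 to 8 and 2 to 7 with IFN-γ, and 0 to 2 and 0 to 1 with IL-4. It gave 4 to 9 and 7 to 15 for IFN-γ in WT, 3 to 9 and 6 to 16 for IFN-γ in CKO, 3 to 6 and 1 to 2 for IL-4 in WT, 3 to 5 and 2 to 13 for IL-4 in CKO, 0 to 1 and 0 to 1 for the IFN-γ response difference, and 0 for that of IL-4. Where the library left out belonged to a group compared, fewer libraries entered the test. The cause of the moves was not tested.

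The library numbers 1 and 2 recur in each group, and the labels do not say what they stand for. Deviations from the group means correlated at 0.10 to 0.43 across genes between groups of the same genotype and at −0.01 to 0.26 between genotypes, and with 2 numbers per group it is not settled whether they pair the libraries. With the replicate block, 11 genes were higher in CKO against WT with IFN-γ, 1 was higher with IL-4, 14 were lower for IL-4 in CKO and 1 was lower for the IFN-γ response difference.

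Changes of sign when a library was left out occurred for values that did not pass the test. Over the libraries left out, the log2 fold change of Tfe3 ran from −0.094 to 0.14 for IFN-γ in WT, from −0.17 to 0.064 for IL-4 in WT and from −0.16 to 0.093 for IL-4 in CKO. That of Mcoln1 for IL-4 in WT ran from −0.065 to 0.093. For CKO against WT with IL-4, Tfeb ran from −0.056 to 0.47, and Mitf from −0.033 (without CKO IL-4 library 1) to 0.26. With 2 libraries per group, small differences were not detectable, and genes under 1 CPM rest on few counts.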
